A study of Homo sapiens with 6 samples.

Results

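The transcription factors that drive the epithelial–mesenchymal transition (EMT) were followed in H2087-LCC cells, a line selected in mice for latency from the human lung adenocarcinoma line H2087. Members were chosen by gene symbol as known EMT factors, with earlier results of these data known: SNAI1, SNAI2, ZEB1, ZEB2, TWIST1, TWIST2, PRRX1, TCF4, SOX4 and HMGA2. Of these 10 genes, 8 had a row among the 21293 genes of the deposited table, and ZEB2 and TWIST1 were not analysed here. A mean of at least 10 normalized counts over the 6 libraries was required for a test, which 6 members passed: SNAI1, SNAI2, ZEB1, TWIST2, SOX4 and HMGA2.

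In EMT, epithelial cells lose their cell–cell junctions and take on mesenchymal features. SNAI and ZEB proteins are zinc-finger repressors that bind E-box DNA in genes such as CDH1, which encodes E-cadherin, whereas TWIST proteins are basic helix–loop–helix factors that bind E-boxes with E proteins such as TCF4. HMGA2 is an architectural chromatin protein, PRRX1 is a homeobox factor of mesenchyme and SOX4 is an HMG-box factor. TGFβ receptors phosphorylate SMAD2 and SMAD3, and the SMAD complex with SMAD4 is known to activate several of these genes in epithelial and carcinoma cells.

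Polyadenylated RNA was sequenced from 3 groups of 2 libraries. Cells received either SB505124 (SB), which blocks the kinase of the type I TGFβ receptor, during 3 days, or TGFβ during 3 or 7 days. SB was sampled at 3 days only, so time in culture and TGFβ cannot be told apart in the comparisons of 7 days with SB or with 3 days of TGFβ. There was no untreated group, and the paper uses SB to block endogenous TGFβ signaling as a baseline. In a difference from SB, the added TGFβ and the blocked endogenous signal therefore cannot be told apart. The study describes libraries of a group as technical replicates, so the errors and p-values measure the spread between these libraries and may not cover that between cultures.

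The normalized counts summed to between 34306283 and 36340734 per library, from an estimated 32021900 to 39958900 assigned reads. Within groups, the median squared difference between libraries was 7.62 to 10.5 times the counting variance over 11389 genes. Of 7 lung epithelium markers, 5 were lower than SB at both times (EPCAM, KRT18, NKX2-1, NAPSA and SFTPB), and KRT8 (33341 to 42692 normalized counts) and KRT19 did not pass the threshold. EPCAM was at 10180 and 9106 in SB and at 2988 and 3277 after 7 days of TGFβ, the lung lineage factor NKX2-1 was at 2784 and 2908 in SB and 712 to 857 with TGFβ, and NAPSA, an aspartic protease gene of the alveolar epithelium, went from 99 and 234 to between 5 and 9. Of 5 fibroblast markers, DCN and LUM were at 0 or 1 in every library, PDGFRA did not pass the threshold and COL6A3 and FAP were higher with TGFβ at both times, COL6A3 rising from 58 and 72 in SB to 963 and 1149 at 3 days; the part of these epithelial and fibroblast markers in the members' changes was not tested. The leukocyte and endothelial markers PTPRC, CD3E, CD14, CDH5 and VWF did not exceed 20, PECAM1 was at 36 to 67, KDR at 26 to 225 and CD68 at 4368 to 5113. The SB libraries differed from each other in lung genes: SFTPB, a surfactant protein gene, was at 1104 and 8273, against 19 to 24 with TGFβ, and ELF3, an epithelial ETS factor, at 1359 and 4388. In bulk RNA, fewer cells that express a gene and less RNA per cell cannot be told apart.

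After 3 days of TGFβ, 5 of the 6 tested members were higher than in SB. Among all 14395 genes tested, 29.0% passed the threshold (adjusted p under 0.05, limma with Benjamini-Hochberg adjustment), 14.9% being higher and 14.0% lower. The median log2 fold change of the 6 members was 0.88, compared with -0.02 over all genes. After 7 days, 5 of the 6 were again higher than in SB, against 54.5% of all genes past the threshold (27.7% higher and 26.9% lower), with a member median of 1.44. The member that did not pass was SOX4 at 3 days and TWIST2 at 7 days. Between 3 and 7 days of TGFβ, ZEB1, SOX4 and HMGA2 rose and the other 3 did not pass the threshold, against 33.2% of genes past the threshold (17.0% higher and 16.2% lower). Both comparisons with SB used the same SB libraries.

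**Figure D1:**
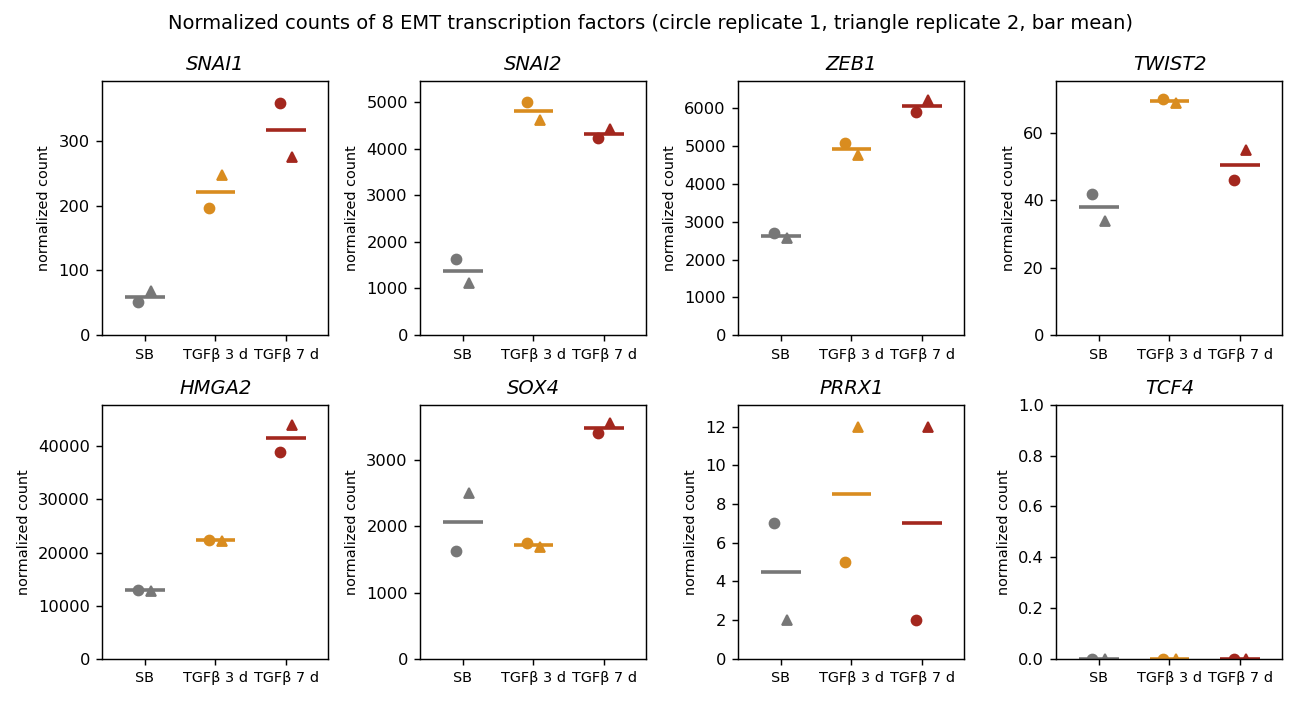
Normalized counts (linear axes starting at 0, a separate scale per gene) of the 8 members with a row, in SB and after 3 and 7 days of TGFβ; circles are replicate 1, triangles replicate 2 and bars the mean of 2 libraries. SNAI1, SNAI2, ZEB1, TWIST2 and HMGA2 lay above SB in all 4 TGFβ libraries, SOX4 rose at 7 days only and TCF4 was listed at 0 throughout. The share of all genes separated in this way was not counted.

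SNAI1 encodes Snail, and its gene lies on chromosome 20 (GRCh37, chr20:48599517-48605423, plus strand). It was at 51 and 68 normalized counts in SB, 196 and 247 after 3 days of TGFβ and 359 and 276 after 7 days. The SB libraries lay below all 4 TGFβ libraries, and the 7-day libraries lay above the 3-day ones. The mean was 59.5 ± 12 (SD, n = 2) in SB and 222 ± 36.1 at 3 days, a 3.72-fold difference (log2 fold change 1.88, SE 0.209, limma adjusted p = 3.6e-05). At 7 days it was 318 ± 58.7, which was 5.34-fold above SB (log2 fold change 2.40, adjusted p = 2.19e-06). This rise was among the top 2.42% of all genes. From 3 to 7 days the log2 fold change was 0.51 and did not pass the threshold (adjusted p = 0.0789). It passed when SB replicate 1 was left out (adjusted p = 0.049) or when only the 4 TGFβ libraries were fitted (0.0417), whereas it was 0.33 without 7-day replicate 1 (adjusted p = 0.434) and 0.35 without 3-day replicate 1 (0.375). SNAI1 was a low-count gene in SB, where read counting alone allowed 37 to 67.4 normalized counts in replicate 1 (95% Poisson interval, counting error only).

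SNAI2 encodes Slug, the paralog of Snail (chr8:49830157-49834299, minus strand). It was at 1640 and 1125 normalized counts in SB, 4996 and 4621 at 3 days and 4227 and 4418 at 7 days. All TGFβ libraries were above both SB libraries, with the highest values at 3 days. The mean rose 3.48-fold at 3 days, from 1382.5 ± 364 to 4808.5 ± 265 (log2 fold change 1.82, SE 0.142, limma adjusted p = 1.86e-06). After 7 days it stood at 4322.5 ± 135, 3.13-fold above SB (log2 fold change 1.67, adjusted p = 1.74e-06). The 7-day libraries were both below the 3-day ones, and this difference of -0.15 on the log2 scale did not pass the threshold (adjusted p = 0.436).

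Per kilobase of exon, SNAI2 made up most of the summed SNAI1 and SNAI2 level in every library. Its share was 94.4% and 89.6% in SB, 93% and 90.7% at 3 days and 86% and 89.3% at 7 days. The shares overlapped between SB and 3 days, while both 7-day shares were below all the others. The nearest were 89.6% in SB and 89.3% at 7 days. In that SB library SNAI1 was at 68 normalized counts, with 52.4 to 85.9 allowed by read counting alone (95% Poisson interval), so this gap was not resolved. The share was a description with no test, and it was larger without division by exon length (95.6% in SB and at 3 days and 93.1% at 7 days).

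ZEB1, a zinc-finger and homeodomain repressor, spans a long stretch of chromosome 10 (chr10:31607424-31818742, plus strand). Its normalized counts were 2702 and 2567 in SB, 5073 and 4770 at 3 days and 5898 and 6223 at 7 days. The 3 groups did not overlap. The mean rose from 2634.5 ± 95.5 to 4921.5 ± 214 at 3 days, or 1.87-fold (log2 fold change 0.90, SE 0.0844, limma adjusted p = 8.89e-06). At 7 days it was 6060.5 ± 230, or 2.3-fold above SB (log2 fold change 1.20, adjusted p = 3.34e-07). The further rise of 0.30 from 3 to 7 days passed the threshold with all libraries (adjusted p = 0.0181). That call was lost when any 1 of the 4 TGFβ libraries was left out, with adjusted p values of 0.0518 and 0.129 without 3-day replicate 1 or 2 and of 0.0717 and 0.16 without 7-day replicate 1 or 2.

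ZEB1 is the textbook target of the miR-200 family, whose members fall into 2 seed groups. A seed, bases 2 to 8 of a microRNA, pairs with matching letters in the 3′ untranslated region of a transcript. The mature sequences (RefSeq, GRCh38.p14) are shown with the seed in capitals, since the groups differ by 1 seed base.
miR-200b-3p: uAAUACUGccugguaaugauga
miR-200c-3p: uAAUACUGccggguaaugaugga
miR-429: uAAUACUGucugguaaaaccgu
miR-200a-3p: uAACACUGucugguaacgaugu
miR-141-3p: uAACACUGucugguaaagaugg

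The 2540-base 3′ untranslated region of the canonical ZEB1 transcript held 6 matches (CAGTATT) to the first seed and 3 matches (CAGTGTT) to the second. The 6 matches are printed with their surroundings (GRCh37, plus strand, match in capitals), because only 2 of 19085 canonical 3′ untranslated regions, those of ZEB1 and RAP1B, held as many.
ZEB1 match at base 369, chr10:31816546-31816571: attgttttatcttatCAGTATTatca
ZEB1 match at base 463, chr10:31816640-31816665: atgctaaatccgcttCAGTATTttat
ZEB1 match at base 892, chr10:31817069-31817094: gtaagtgccatttctCAGTATTttca
ZEB1 match at base 1243, chr10:31817420-31817445: ctgatttttacctatCAGTATTattt
ZEB1 match at base 1313, chr10:31817490-31817515: tgtcttcaaacctggCAGTATTaata
ZEB1 match at base 1964, chr10:31818141-31818166: tcttttcatcattatCAGTATTttct

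At least 1 CAGTATT was present in 16.3% of these regions and at least 1 CAGTGTT in 18.3%, and 1.01% had 3 or more CAGTGTT. SNAI1, SOX4, HMGA2 and TWIST2 held neither, and SNAI2 was not looked up. RAP1B, a RAS-like GTPase with as many CAGTATT matches as ZEB1, was 0.31 higher on the log2 scale at 3 days (adjusted p = 0.0383) and did not pass the threshold at 7 days (0.12, adjusted p = 0.327). The microRNAs themselves were not measured, and a match is a description of letters, not a measured site.

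**Figure D2:**
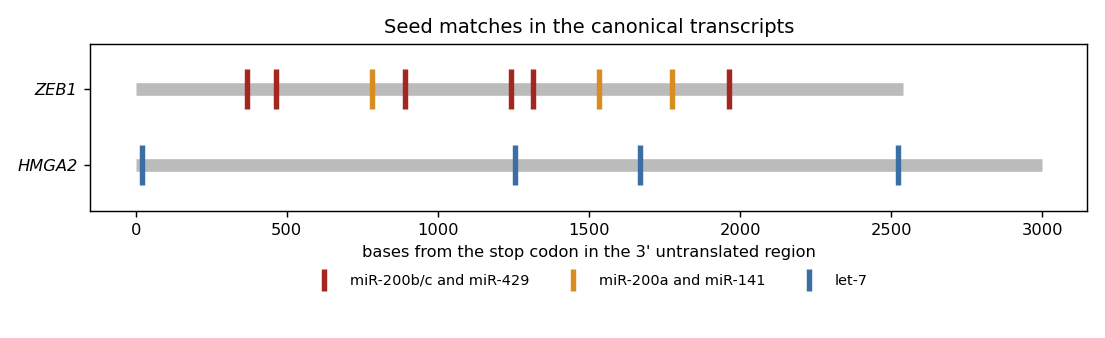
Positions of seed matches along the 3′ untranslated regions of the canonical HMGA2 and ZEB1 transcripts, in bases from the stop codon; marks are coloured by microRNA seed group. ZEB1 held 6 and 3 matches to the miR-200 seeds and none to let-7, and HMGA2 held 4 matches to let-7 and none to the miR-200 seeds.

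The promoter window of ZEB1 (250 bases before to 50 after the outermost RefSeq start) held 2 E-box matches (CANNTG, the same on both strands), 1 of them CAGGTG, the form bound by SNAI and ZEB proteins. It is shown because ZEB1 encodes an E-box binding repressor and rose with TGFβ; capitals mark CANNTG in the 250 bases upstream of the start.
ZEB1 promoter, GRCh38.p14 chr10:31318167-31318416, plus strand: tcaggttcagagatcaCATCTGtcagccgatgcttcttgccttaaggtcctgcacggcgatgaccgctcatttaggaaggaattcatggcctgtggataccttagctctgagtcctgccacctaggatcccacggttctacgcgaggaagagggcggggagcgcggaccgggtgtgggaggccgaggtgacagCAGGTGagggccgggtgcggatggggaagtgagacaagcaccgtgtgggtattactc

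CAGGTG or its reverse complement CACCTG was present in 20.6% of 35116 promoter windows and CANNTG, which includes both, in 68.7%. A second ZEB1 start, with the window chr10:31318966-31319265, held 3 matches to CAGGTG or CACCTG, and the remaining ZEB1 windows held none. The letters CAGAC or GTCTG, part of the SMAD-binding element, were present in 45.3% of windows. They were absent at the outermost ZEB1 start, and of the other ZEB1 windows 3 held them, with 1, 2 and 2 matches. No factor binding was measured here.

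TWIST2 (chr2:239756673-239832230, plus strand) was expressed at a low level. Its normalized counts were 42 and 34 in SB, 70 and 69 at 3 days and 46 and 55 at 7 days. The 3-day libraries were above all the others, and the 7-day libraries lay between. The mean was 38 ± 5.66 in SB and 69.5 ± 0.707 at 3 days, a 1.83-fold difference (log2 fold change 0.86, SE 0.245, limma adjusted p = 0.0206). The call was lost with no filter on low values (adjusted p = 0.0522), without SB replicate 2 (0.0709) and without 3-day replicate 1 (0.105) or 2 (0.083). At 7 days the mean was 50.5 ± 6.36, with a log2 fold change against SB of 0.40 (adjusted p = 0.183) and against 3 days of -0.46 (adjusted p = 0.172).

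PRRX1 and TCF4 did not pass the filter on low values. PRRX1 (chr1:170631869-170708562) was at 7 and 2 normalized counts in SB, 5 and 12 at 3 days and 2 and 12 at 7 days, so the groups overlapped. Without the filter its log2 fold changes were 0.85 at 3 days and 0.35 at 7 days (adjusted p = 0.557 and 0.798), and no difference was detectable at this depth. TCF4, an E protein that pairs with TWIST factors (chr18:52889416-53332018, minus strand), was listed at 0 in each of the 6 libraries.

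HMGA2, an AT-hook protein known as a let-7 target (chr12:66218240-66360071, plus strand), had the highest normalized counts of the members. They were 12971 and 12780 in SB, 22424 and 22138 at 3 days and 38990 and 43996 at 7 days. The 3 groups were separated, and the level rose at each step. The mean rose 1.73-fold at 3 days, from 12875.5 ± 135 to 22281.0 ± 202 (log2 fold change 0.79, SE 0.0819, limma adjusted p = 2.03e-05). At 7 days it was 41493.0 ± 3540, or 3.22-fold above SB (log2 fold change 1.69, adjusted p = 1.66e-08). The step from 3 to 7 days was 0.89 (adjusted p = 2.69e-05), and it passed the threshold in every fit that left out 1 library (0.81 to 0.98).

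The 2999-base 3′ untranslated region of the canonical HMGA2 transcript held 4 matches (CTACCTC) to the let-7 seed. The let-7a sequence and the 4 matches are printed (GRCh37, plus strand) because 12 of the 19085 regions, or 0.0629%, held as many, while 9.74% held at least 1.
let-7a-5p: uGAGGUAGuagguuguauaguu
HMGA2 match at base 21, chr12:66357078-66357103: gccaacgttcgatttCTACCTCagca
HMGA2 match at base 1256, chr12:66358313-66358338: ccccactactcaataCTACCTCtgaa
HMGA2 match at base 1668, chr12:66358725-66358750: ttgacttgcaaagacCTACCTCcaga
HMGA2 match at base 2521, chr12:66359578-66359603: aatcaaaacacactaCTACCTCttaa

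Of those 12 genes, 9 were tested, and they did not share a direction. At 7 days the genes higher than SB included HMGA2 and IGF2BP1, 2 were lower (NR6A1 and SMC1A) and 4 did not pass the threshold (HEMK1, HIC2, LIMD2 and ZBTB37). Among all genes tested, 54.5% passed the threshold at 7 days, 27.7% being higher and 26.9% lower. IGF2BP1, which encodes an RNA-binding protein of the oncofetal type, was at 96 and 111 normalized counts in SB, 296 and 293 at 3 days and 646 and 650 at 7 days. Like HMGA2 it rose at both steps, with log2 fold changes against SB of 1.503 (adjusted p = 1.1e-05) and then 2.64 (4.18e-08). NR6A1, an orphan nuclear receptor gene, was lower at both times, with log2 fold changes of -1.405 (adjusted p = 0.000351) and -1.30 (0.000274). The other tested members of the HMGA and let-7 list, HMGA1, IGF2BP2, IGF2BP3, MIRLET7BHG, DICER1 and AGO2, did not pass the threshold against SB at either time with all libraries, and the 7-day count of 1 for this list was 2 without either SB library. The let-7 host transcript MIRLET7BHG was between 26 and 42 normalized counts, and LIN28A and LIN28B, which block let-7 processing, were at 0 or 1.

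SOX4 (chr6:21593982-21598850, plus strand) was the member that rose at 7 days only. Its normalized counts were 1629 and 2504 in SB, 1743 and 1690 at 3 days and 3403 and 3555 at 7 days. The SB libraries spanned the 3-day values, and both 7-day libraries lay above all others. The mean was 2066.5 ± 619 in SB and 1716.5 ± 37.5 at 3 days, and the log2 fold change was -0.23 (SE 0.155, limma adjusted p = 0.286). This value turned on the SB library used: it was -0.54 without SB replicate 1 (adjusted p = 0.00278) and 0.08 without SB replicate 2 (adjusted p = 0.605). At 7 days the mean was 3479.0 ± 107, or 1.68-fold above SB (log2 fold change 0.78, adjusted p = 0.00115). This value was 0.47 without SB replicate 1 (adjusted p = 0.00309) and 1.09 without SB replicate 2 (2.41e-05). Compared with 3 days it was 2.03-fold higher (log2 fold change 1.02, adjusted p = 0.000682). SB replicate 2, the higher SOX4 library, was also the higher one for SFTPB, ELF3 and the SOX family gene SOX2 (1552 and 2658), whose part in the SOX4 value was not tested.

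The promoter window of SOX4 held 2 CANNTG matches, both CAGCTG, and none of CAGGTG or CACCTG. It also held 1 GTCTG. The 250 bases upstream are shown with CANNTG in capitals, as for ZEB1. A link between these letters and the course of either gene was not tested.
SOX4 promoter, GRCh38.p14 chr6:21593501-21593750, plus strand: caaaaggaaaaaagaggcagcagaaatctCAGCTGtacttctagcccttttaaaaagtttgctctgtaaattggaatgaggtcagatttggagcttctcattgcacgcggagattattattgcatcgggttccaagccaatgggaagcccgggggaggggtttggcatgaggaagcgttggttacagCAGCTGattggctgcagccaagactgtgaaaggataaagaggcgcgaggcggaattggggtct

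TWIST2 held no CANNTG in its window, and promoter entries were matched for 6 of the 10 members.

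Other SOX genes were read beside SOX4. Of the 4 tested, SOX2, SOX9 and SOX13 were lower than SB at 3 days (log2 fold changes of -1.77, -0.66 and -0.66, limma adjusted p = 3.15e-05 for SOX2). All 4, including SOX12, were higher at 7 days than at 3 days, by 0.74 (SOX2), 1.045 (SOX9), 0.56 (SOX12) and 0.46 (SOX13). Among all genes tested, 14.0% were lower than SB at 3 days and 17.0% were higher at 7 days than at 3 days. The count of 4 was 2 without 3-day replicate 1, without 7-day replicate 1 or without 7-day replicate 2. SOX9, a factor of distal lung progenitors, was at 1835 and 2305 normalized counts in SB, 1233 and 1365 at 3 days and 2591 and 2769 at 7 days. It was thus below SB at 3 days (adjusted p = 0.00118) and above it at 7 days (0.38, adjusted p = 0.0159).

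**Figure D3:**
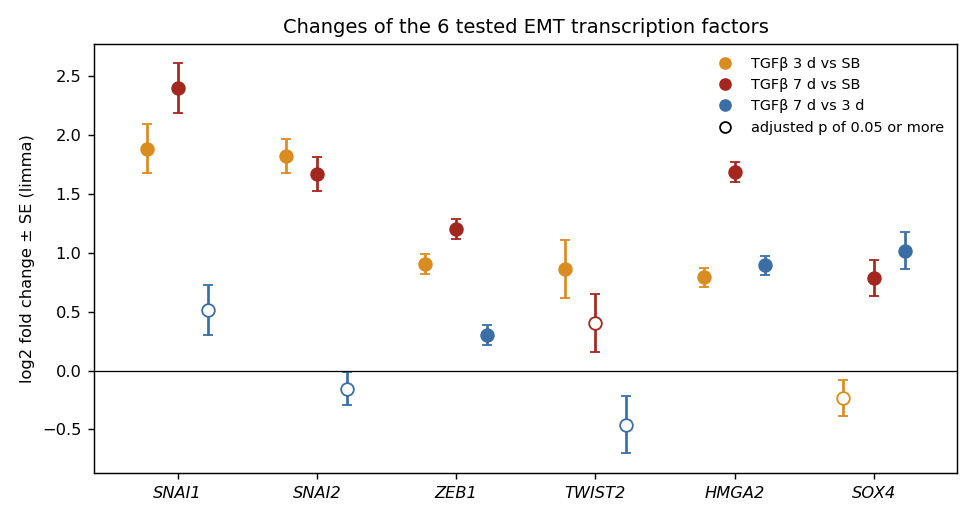
Log2 fold changes with SE (limma, 6 libraries) of the 6 tested members for 3 days against SB, 7 days against SB and 7 days against 3 days; open symbols mark an adjusted p of 0.05 or more. SNAI1 and SNAI2 had the largest values at 3 days (1.88 and 1.82), and SOX4 the largest between 3 and 7 days (1.02).

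Levels of different genes were compared per kilobase of merged exon length. In SB, HMGA2 was highest, at 854 ± 8.96 normalized counts per kilobase (SD, n = 2). SOX4 (424 ± 127), SNAI2 (421 ± 111) and ZEB1 (305 ± 11) followed, of which the SOX4 and SNAI2 libraries overlapped. SNAI1 was at 34.9 ± 7.05, TWIST2 at 22.5 ± 3.35 and PRRX1 at 0.546 ± 0.429.

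At 3 days the order changed. HMGA2 (1488 and 1469 per kilobase) and SNAI2 (1523 and 1408) overlapped, followed by ZEB1 at 569 ± 24.8, SOX4 at 353 ± 7.7, SNAI1 at 130 ± 21.2 and TWIST2 at 41.1 ± 0.418. At 7 days HMGA2 was alone at the top at 2753 ± 235, SNAI2 was at 1317 ± 41.2, and SOX4 (699 and 730) and ZEB1 (682 and 719) overlapped. SNAI1 was at 186 ± 34.4 and TWIST2 at 29.9 ± 3.77. Several positions depend on the length used. With the longest transcript of each gene (8094 bases in place of 15070 merged bases for HMGA2), HMGA2 was at 2753 per kilobase at 3 days and SNAI2 at 1700, without overlap. On that scale ZEB1 was above SOX4 at 7 days (944 and 996 against 699 and 730), and in SB ZEB1 (432 and 411), SOX4 (335 and 514) and SNAI2 (580 and 398) overlapped.

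**Figure D4:**
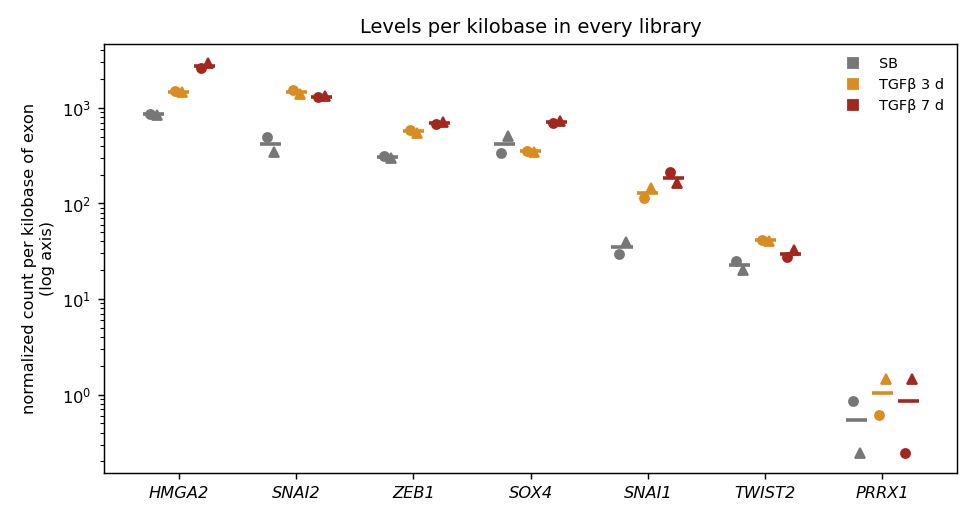
Normalized counts per kilobase of merged exon (log axis) for the 7 members above 0, in SB and after 3 and 7 days of TGFβ; circles and triangles are the 2 libraries and bars their mean. HMGA2, SNAI2, ZEB1 and SOX4 lay at 297 per kilobase or more in every library, and SNAI1, TWIST2 and PRRX1 at 211 or less.

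For each tested member, the 3 genes with the most similar values were found among those with a mean of at least 100 normalized counts. Similarity was the Euclidean distance over the 6 libraries of log2 values set to 0 at the SB mean. Each library entered singly, so gaps between the libraries of a group were matched along with the treatment course. SNAI1 and its 3 closest genes had the same order of libraries within every group. SOX4 and its 3 closest genes had the same order in SB. The part of these gaps in the choice of genes, and shared regulation by TGFβ, were not tested. SNAI1 was closest to SEMA3F (distance 0.134), TGFB1 (0.246) and ARHGEF40 (0.285). TGFB1, which encodes a TGFβ ligand, was at 431 and 481 normalized counts in SB, 1381 and 1775 at 3 days and 2595 and 2153 at 7 days. SNAI2 was closest to VEPH1 (0.188), LINC00704 (0.302) and GNG11 (0.311), and ZEB1 to ATP10D (0.092), SERINC3 (0.134) and MAP3K2 (0.138). HMGA2 was closest to HIST1H2BD (0.134), TGFBR1 (0.162) and PLSCR4 (0.176). TGFBR1, the type I TGFβ receptor gene and the target of SB, was at 2077 and 1948 in SB, 3763 and 3338 at 3 days and 6537 and 6787 at 7 days. SOX4 was closest to MCC (0.192), PPARA (0.218) and USP44 (0.241), and TWIST2 to MSANTD3 (0.173), RBMS2 (0.175) and GLDC (0.191).

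The counts of the lists that follow stand against 29.0% of all genes past the threshold at 3 days (14.9% higher and 14.0% lower) and 54.5% at 7 days (27.7% higher and 26.9% lower). SMADs and their nuclear partners act upstream of the EMT factors. Of 12 tested, 4 were higher and 2 lower than SB at 3 days, and 7 were higher and 3 lower at 7 days, with medians of 0.13 and 0.28. The feedback inhibitors led: SMAD7 was at 112 and 79 normalized counts in SB, 916 and 799 at 3 days and 854 and 747 at 7 days (log2 fold change 3.17 at 3 days). SKIL, the SMAD corepressor SnoN, rose by 2.42 at 3 days and 3.40 at 7 days, and JUNB, an AP-1 subunit, by 2.02 and 2.63. SMAD3 was lower, at 11488 and 10618 in SB, 8171 and 7518 at 3 days and 5101 and 4843 at 7 days (log2 fold changes -0.49 and -1.15, limma adjusted p = 0.000963 at 3 days). RREB1, a RAS-responsive partner of SMADs at SNAI1, was 0.14 above SB at 3 days (adjusted p = 0.413) and 0.31 at 7 days (0.0421).

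E proteins are partners of TWIST factors, and ID proteins sequester E proteins. Of 5 tested, 2 were higher and 2 lower at 3 days, and 3 were higher and 1 lower at 7 days. TCF12 rose by 0.30 and 0.77 and TCF3 fell (-0.39 and -0.52) at 3 and 7 days. ID2 was at 65 and 38 normalized counts in SB, 149 and 141 at 3 days and 308 and 279 at 7 days. ID3 was lowest at 3 days: it was at 409 and 352 in SB, 131 and 150 at 3 days and 336 and 244 at 7 days, with a 3-day log2 fold change of -1.43 (adjusted p = 9.87e-05). ID1 was 0.11 above SB at 3 days (adjusted p = 0.564) and rose by 1.46 at 7 days. Between 3 and 7 days ID1, ID2, ID3 and TCF12 rose, against 17.0% of all genes called higher in that comparison, and TCF3 did not pass the threshold. ID4, under the filter, was at 19 and 15 in SB, 0 and 3 at 3 days and 0 in both libraries at 7 days. The count of 4 calls at 3 days was 2 without 3-day replicate 1.

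Other transcription factors reported to induce EMT moved in both directions. Of 15 tested, 3 were higher and 5 lower at 3 days, and 4 were higher and 6 lower at 7 days, with medians of -0.13 and -0.20. The share called higher at 7 days was near the 27.7% of all genes, and the count of 8 calls at 3 days was 5 with no filter on low values. MSX2 rose by 1.10 and 1.85 and TBX3 by 0.92 and 1.27, while LEF1 rose at 7 days (1.13, adjusted p = 0.0126). FOXQ1 had the largest change and fell, from 836 and 853 normalized counts in SB to 153 and 115 at 3 days and 47 and 50 at 7 days. FOXC1 fell (-0.98 and -0.81). ETS1, a proto-oncogene of the ETS family, was higher at 3 days only (0.54, adjusted p = 0.00122), and GATA6 was lower at 7 days (-0.88).

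Corepressors carry out repression by SNAI and ZEB proteins. Of 18 tested, 3 were higher and 5 lower at 3 days, and 4 were higher and 8 lower at 7 days, against 29.0% and 54.5% of all genes called in either direction. The LSD1 complex genes KDM1A, RCOR1 and HDAC1 were the 3 higher ones at 3 days, by 0.35, 0.40 and 0.28. HDAC2, in the same list, did not pass the threshold at 3 days (-0.119, limma adjusted p = 0.335) or 7 days (-0.115, adjusted p = 0.28). AJUBA, a LIM protein that bridges Snail to corepressors, was at 3761 and 3420 normalized counts in SB, 2251 and 2101 at 3 days and 1269 and 1288 at 7 days. EZH2, the H3K27 methyltransferase gene, fell (-0.40 and -0.68), and SUV39H1 (-0.82) and PRMT5 (-0.72) were lower at 7 days. The count at 3 days was 8 in all and fell to 3 without 3-day replicate 1, to 4 without 3-day replicate 2 and to 3 without the trend on mean expression.

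Protein stability of SNAI, ZEB and TWIST factors is set by kinases, phosphatases and ubiquitin ligases. Of 17 such genes tested, 5 were higher and none lower at 3 days and 5 were higher and 2 lower (FBXO45 and COPS2) at 7 days, with medians of 0.05 and 0.11. The share called at 3 days was near the 29.0% of all genes, and that at 7 days was below 54.5%. The 3-day count was 1 to 3 in every fit that left out 1 library (1 without 3-day replicate 1, 2 without 3-day replicate 2 and 3 without any other), and the 7-day count of 7 was 4 without SB replicate 1. GSK3B, the kinase that marks Snail for degradation, was 0.50 higher at 3 days and 0.75 at 7 days, from 4216 and 4293 normalized counts in SB to 6857 and 7439 at 7 days. LATS2, ATM, FBXO11 and PAK1 were the other higher genes at 3 days, by 0.33, 0.33, 0.32 and 0.29. Protein levels were not measured.

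Epithelial genes reported to be repressed by these factors were mostly lower. Of 21 tested, 1 was higher and 11 lower at 3 days, and 4 were higher and 13 lower at 7 days, with medians of -0.61 and -0.69. CDH1 was at 371 and 635 normalized counts in SB, 28 and 24 at 3 days and 10 and 9 at 7 days (log2 fold changes -4.18 and -5.54). CLDN3 (-2.16) and MUC1 (-2.13) fell at 3 days, and OCLN was lower at 7 days (-2.51). TJP3 fell by 4.31 at 3 days, from 21 and 70 to 1 and 1, and MUC1 from 448 and 1289 to 169 and 177, both with a wide gap between the SB libraries. The genes that rose were CDS1 at both times and CLDN4, ST14 and SPINT1 at 7 days. KRT8 did not pass the threshold at either time. The count of 12 calls at 3 days was 7 without 3-day replicate 1 and 7 with no filter on low values. A further 5 genes, CRB3, ESRP1, MARVELD3, RAB25 and GRHL2, were under the filter, and CRB3 went from 10 and 25 in SB to 0 and 6 at 3 days and 0 and 0 at 7 days.

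Mesenchymal genes were mostly higher. Of 15 tested, 8 were higher and 1 lower at 3 days, and 10 were higher and 3 lower at 7 days, with medians of 0.82 and 1.22. ITGA5, the fibronectin receptor subunit, rose by 2.63 and 3.00, MMP2 by 3.16 and 2.85 and PDGFRB by 1.84 and 3.96. SPARC rose by 1.08 at 3 days and 2.98 at 7 days. TNC was lower at both times (-0.48 and -0.89), as were LOX (-0.92) and AXL (-1.87) at 7 days. CDH2, which encodes N-cadherin, was at 0 or 1 in every library.

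Transcription factors that oppose EMT were mostly lower. Of 10 tested, 1 was higher and 7 lower at 3 days, and 1 was higher and 8 lower at 7 days, with medians of -1.30 and -1.75. ELF3 fell (log2 fold changes -5.14 and -4.32), to 66 and 71 normalized counts at 3 days and 124 and 118 at 7 days. GRHL3 fell (-2.70 and -3.10), as did the foregut factor FOXA2 (-2.69 and -2.96), from 490 and 642 to 75 and 99 and then 68 and 75. NKX2-1 fell to 712 and 748 at 3 days and was at 853 and 857 at 7 days. KLF4 was the higher gene at 3 days (0.30) and was lower than SB at 7 days (-0.29). ELF5 was the higher gene at 7 days, at 3 and 4 in SB, 9 and 5 at 3 days and 13 and 27 at 7 days. It passed the filter, with a mean of 10.2, only through its 7-day libraries, so this call rests on values near the floor. OVOL1 and GRHL2 were at 5 or below in every library, and OVOL2 went from 9 and 9 in SB to 0 or 1 with TGFβ.

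**Figure D5:**
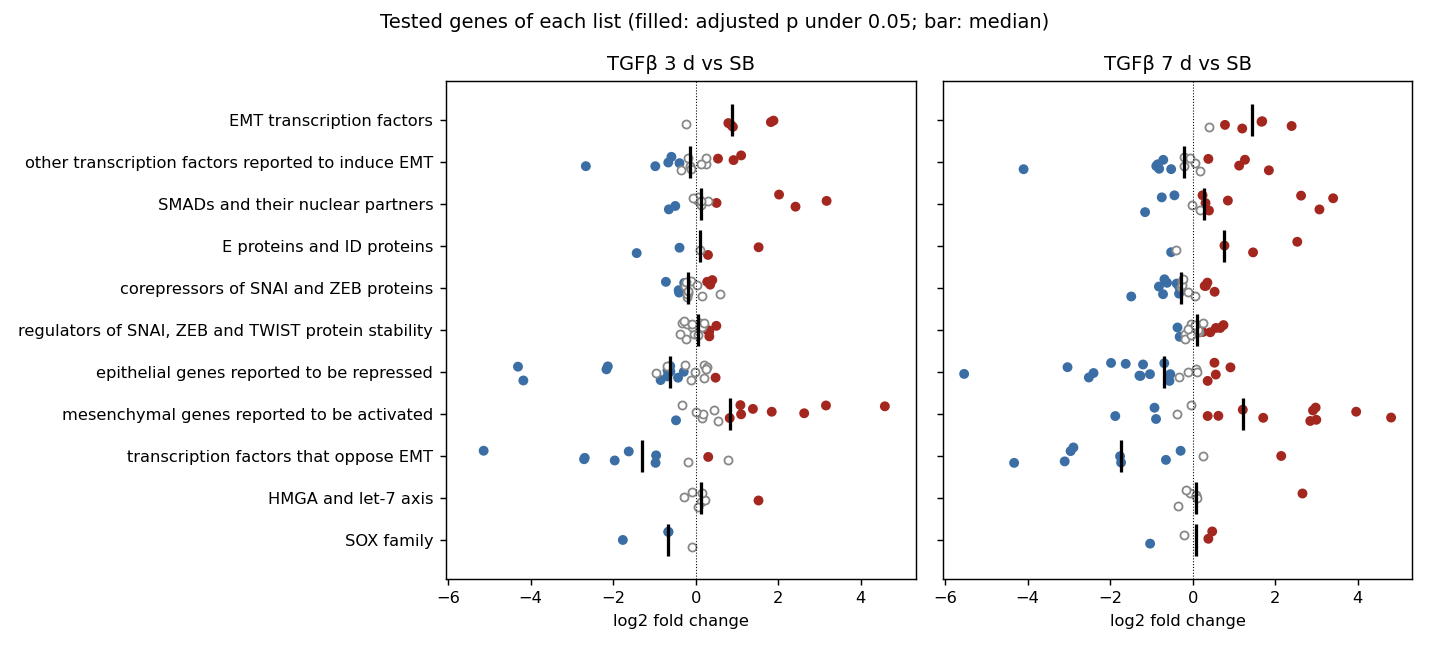
Log2 fold changes of every tested gene of the EMT transcription factors and of 10 related lists, for 3 days against SB (left) and 7 days against SB (right); filled points passed an adjusted p under 0.05 (red higher, blue lower), open points did not, and bars are medians. The medians of the members were 0.88 and 1.44, those of mesenchymal genes 0.82 and 1.22 and those of factors that oppose EMT -1.30 and -1.75.

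Antisense and overlapping transcripts were read beside the members, because the library kit does not mark strand. ZEB1-AS1 shares 396 exon bases with ZEB1, or 4.58% of the merged ZEB1 exons. It was at 289 and 248 normalized counts in SB, 207 and 204 at 3 days and 214 and 207 at 7 days (log2 fold changes -0.38 and -0.35, limma adjusted p = 0.0831 and 0.0738), while ZEB1 rose. RPSAP52, whose locus overlaps the start of HMGA2 on the opposite strand, shares 0 exon bases with it and went from 621 and 592 in SB to 544 and 551 at 3 days and 418 and 413 at 7 days. Its 7-day log2 fold change was -0.54 (adjusted p = 0.00195), while HMGA2 rose. CASC15, a long noncoding RNA gene beside SOX4, was at 0 and 6 in SB, 10 and 6 at 3 days and 22 and 28 at 7 days (log2 fold change 3.29, limma adjusted p = 0.00283). It passed the filter, with a mean of 12, only through its 7-day libraries, and its SB values were near the floor.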

How the data were processed

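Paired reads from 6 libraries of H2087-LCC cells (TruSeq RNA v2) were mapped by the authors to hg19 with STAR, assigned to genes with HTSeq 0.6.1p1 and normalized by library size with DESeq2 (version 3.4 per the submitters' processing notes). The deposited values for 21293 genes are these normalized counts, all of them whole, treated here under the unit score, since they are not raw read counts. The reads per library were estimated from gaps among low values. Values were transformed as log2(value + 1), a scale that understates changes of low genes. Genes averaging 10 or more (14395) entered limma 3.58.1, run in R 4.3.3 (group as the only term, 6 libraries, trend on mean expression). The p-values were adjusted over all genes by the Benjamini-Hochberg method at 0.05. The average was taken over all groups, so a gene could pass through only the libraries in which it was high, as ELF5, CASC15, FAP and MMP2 did with TGFβ. With 2 libraries a group, an exact permutation test of 1 gene cannot go below 0.333.

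The members and lists were chosen with earlier results of these data known. Named genes were the members, the 3 closest genes of each, up to 4 genes per list and comparison with the largest change past the threshold, and genes behind counts of 5 or fewer; other genes were named after their values were seen. Values of 3 genes are not reported here. Lists overlap in TCF3, SOX9, HMGA1 and GRHL2. Gene models were GENCODE v44 lifted to GRCh37. MicroRNA and promoter sequences were from RefSeq (GRCh38.p14). The steps were tested on simulated data. Plots used matplotlib 3.10.9 (Python 3.11.15).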

Additional observations from a re-analysis of the deposited data

Results flagged for a closer look

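Of all genes tested, 33.2% differed between 7 and 3 days of TGFβ (limma). This test compares the 7-day with the 3-day libraries, so time in culture and length of TGFβ treatment cannot be told apart in it. Given here are the members that passed it and the list genes named above that also passed against SB in opposite directions at 3 and 7 days. Among the members, the log2 fold change was larger at 7 days by 0.30 for ZEB1 (0.90 to 1.20, adjusted p = 0.0181), by 1.02 for SOX4 (-0.23 to 0.78, adjusted p = 0.000682) and by 0.89 for HMGA2 (0.79 to 1.69, adjusted p = 2.69e-05). SOX9, a SOX family gene, differed by 1.045 (-0.66 to 0.38), and KLF4, a factor that opposes EMT, by -0.59 (0.30 to -0.29, adjusted p = 0.000688). Both changes against SB use the same SB libraries.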

How the results depend on the processing

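The 10 alternatives counted as with all libraries include a fit of only the 4 libraries compared, which leaves out the group not compared. Across these 10, 5 of the 6 tested members passed the threshold against SB at 7 days in each, 4 to 5 at 3 days, and 2 to 4 between 3 and 7 days. With 1 library left out, the counts were 5, 4 to 6 and 2 to 4. Of the members' values in these 10, 177 kept direction and call. The call was lost by 2 (TWIST2 at 3 days with no filter, ZEB1 between 3 and 7 days in limma without the trend, adjusted p = 0.0709). It was gained by 1 (SNAI1 between 3 and 7 days, in the fit of only the 4 TGFβ libraries). With 1 library left out, 98 kept both, 7 lost the call, 2 gained it and 1 reversed (SOX4 at 3 days, -0.54 to 0.0753, the latter without SB replicate 2). The share of SNAI2 moved to 95.6%, 95.6% and 93.1% without division by length. Over all genes, the count called between 3 and 7 days moved from 4775 to 3042 with no filter and 3122 without the trend. Leaving out 1 library gave 2609 to 3877 genes at 3 days, 5913 to 7687 at 7 days and 2314 to 5554 between the times. Equal library totals gave 1819 higher and 2552 lower genes at 3 days, against 2149 and 2021. The replicate block gave 3943 genes at 3 days, 7546 at 7 days and 4485 between the times and changed no member's call. Same-numbered libraries did not deviate together in all pairs of groups (over 11389 genes), so the numbers were not taken as pairs. The r was 0.208 for SB with 3 days, -0.13 for SB with 7 days and -0.647 for 3 with 7 days. By number, the 3-day and 7-day libraries thus deviated in opposite directions. A block by number cannot take this up, so its result does not settle the comparison of 7 with 3 days. Shares of ZEB1 with ZEB2 and of TWIST1 with TWIST2 were not run, since ZEB2 and TWIST1 were not analysed here. Counts of called genes in the related lists moved by over 1.5 times in 33 of 330 values with all libraries and 38 of 198 with 1 left out. The causes were not tested.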
